A study of Mus musculus with 18 samples.

Results

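The interaction of Hmgn1 genotype with differentiation stage was examined between mouse neural progenitors and neurons. The contrast compared 12 of the 18 arrays of the series, 3 in each of 4 groups. These were progenitors with both Hmgn1 alleles intact (+/+), progenitors with neither (-/-), +/+ neurons and -/- neurons. The strain was C57/B6 throughout. Both genotypes began as embryonic stem (ES) cells, grown with LIF on inactivated embryonic fibroblasts or without them, and a commercial kit for dopaminergic neurons turned these into the neural cells. Labelled cRNA from 6 ug of total RNA went onto each Affymetrix array. All 18 arrays, ES cells included, entered the filter, the choice of probe sets and the estimate of spread. The labels call the arrays biological replicates but do not say whether they were separate cultures or differentiations. The p-values therefore measure the spread between arrays of a group, pooled over all 18 arrays, and this spread may be technical. The labels do not give how many ES lines stood for a genotype, nor which cultures had feeders. Line and genotype therefore cannot be told apart.

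HMGN1 is a small protein that binds nucleosomes, competes with linker histone for them and loosens chromatin. It is known for wide, mostly modest effects on transcription rather than for a single pathway. In culture, ES cells pass through proliferating progenitors, marked by nestin and SOX2, to postmitotic neurons, and such cultures can also hold mesenchymal, endodermal and extraembryonic cells.

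For each gene, the genotype effect in progenitors (-/- minus +/+) was subtracted from the genotype effect in neurons. The result, called the interaction, equals the change from progenitor to neuron in -/- cells minus that in +/+ cells. All differences are on the scale of log2(intensity + 1), with a standard error (SE) from the limma fit and n = 3 arrays per group. A gene was called at a Benjamini-Hochberg adjusted p under 0.05. Of the 45101 probe sets of the array, 34945 had 1 gene symbol, and after a filter on dim probe sets 14432 genes were tested, each through its brightest probe set.

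The 12 arrays had median intensities of 55.7 to 60.5 and correlated with their group mates at r 0.9963 to 0.9982. The 40th percentile of an array, 36.6 to 37.9, served as the lower bound for signal. Hmgn1 itself was read at 11594.3, 11505.5 and 10841.4 on the +/+ progenitor arrays, 9156.2, 9219.2 and 8653.7 on the -/- progenitor arrays, 8734.9, 9178.1 and 9259.2 on the +/+ neuron arrays and 7313.0, 7119.1 and 7284.3 on the -/- neuron arrays. Every -/- array lay below every +/+ array of its stage. The -/- minus +/+ difference was -0.33 in progenitors and -0.32 in neurons, and the interaction was 0.01 (SE 0.06, adjusted p 0.974). Other probe sets of Hmgn1 fell further, with -0.56 and -0.46 in progenitors and -0.44 and -0.54 in neurons. A signal remained on every -/- array. The sources used here do not say whether the brightest probe set lies within the disrupted part of the gene, so it is a weak check of the labels. The summed intensity of 9 neuronal markers was 6620 to 6915 over the 6 progenitor arrays and 28621 to 34262 over the 6 neuron arrays. The 7 progenitor markers summed to 20589 to 22502 on the neuron arrays, close to the 22930 to 25649 on the progenitor arrays. Vim and Sox2 carried most of this sum, with means of 14884 and 4439 in +/+ progenitors and 11621 and 6795 in +/+ neurons. Between these groups Nes fell from 1034 to 225 and Pax6 from 438 to 238, whereas Hes5 rose from 315 to 523. Of the dopaminergic markers in +/+ neurons, Th, the rate-limiting enzyme of dopamine synthesis, read 62.3, 66.4 and 58.4 and Slc6a3, Pitx3 and En1 had means under the bound, while Slc18a2, Nr4a2, Foxa2 and Ddc had means of 444, 483, 508 and 426. These are bulk samples, so fewer cells of a type and less RNA per cell cannot be told apart.

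The genotype effect differed between the stages for 1599 genes, 11.1% of those tested. It was higher in neurons than in progenitors for 818 genes (5.67% of all tested) and lower for 781 (5.41%). With array weights 1116 were higher and 1254 lower, so that the share higher among the calls was 47.1% in place of 51.2%. For 146 of them the difference was at least 2-fold, 67 higher and 79 lower. The genotype effect on its own was called higher in -/- progenitors for 1127 genes (7.81%) and lower for 1326 (9.19%). In neurons it was higher for 858 (5.95%) and lower for 1049 (7.27%).

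Most of the 1599 genes had a genotype effect that was called at 1 stage and not at the other. For 736 the genotype effect was called in progenitors alone and for 455 in neurons alone. A further 127 had effects of 1 sign at both stages, smaller in neurons for 102 and larger for 25. The genotype effect was called at both stages with opposite sign for 135 genes (8.44% of the 1599). Of these, 71 were higher in -/- progenitors and lower in -/- neurons, and 64 the other way. The remaining 146 passed for the interaction but for neither genotype effect.

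**Figure D1:**
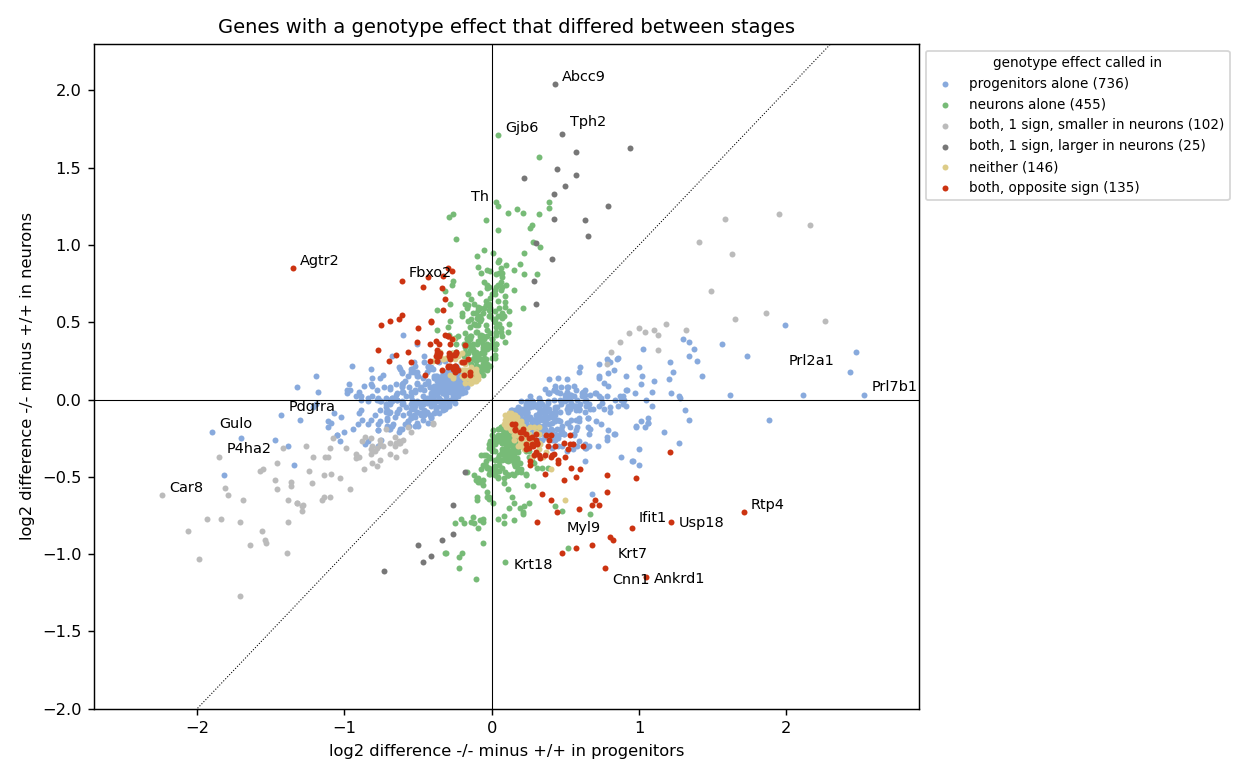
Genotype effect in neurons against that in progenitors for the 1599 genes with a called interaction, both as log2 differences -/- minus +/+, 1 point per gene, coloured by the stage at which the genotype effect was called. Blue points were called in progenitors alone (736 genes), green points in neurons alone (455 genes), and red points (135 genes) at both stages with opposite sign. Rtp4, Usp18 and Ankrd1 lie at the lower right, Agtr2 at the upper left. The dotted line marks equal effects. Genes near it were not called and so are absent from the plot.

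As the change from progenitor to neuron, the same contrast is a difference between large movements. In +/+ cells 4997 genes rose with the step (34.6%) and 6407 fell (44.4%). In -/- cells 5087 rose (35.2%) and 6583 fell (45.6%). Both steps were fitted in the same arrays as the interaction and serve below only to give its direction.

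Many interferon-induced genes were higher in -/- than in +/+ progenitors and lower in -/- than in +/+ neurons. Of 28 tested genes on the list of interferon response and MHC class I genes, 15 had a lower genotype effect in neurons and none a higher one, with a median interaction of -0.65 (all genes -0.02). For 10 of the 15 the genotype effect was called at both stages with opposite sign. With 1 array left out, calls at a single stage were lost for some of them. Irf7 lost its call in progenitors in 4 fits and in neurons in 3. Psmb8 and Rtp4 lost theirs in neurons in 4 and 5 fits. Usp18, Ifit1, Rsad2, Oasl2, Xaf1 and Bst2 kept both calls in every such fit. The 28 genes had a median genotype effect of 0.40 in progenitors, where 17 were higher and 1 lower. In neurons the median was -0.27, with 1 higher and 13 lower. Over all tested genes, 7.81% were higher and 9.19% lower in -/- progenitors, and 5.95% and 7.27% in -/- neurons. The interaction was called higher for 5.67% of all genes and lower for 5.41%. Many interferon-induced genes carry the interferon-stimulated response element in their promoters, and their products hinder viruses at many steps.

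The element, searched as 2 GAAA half-sites with any 2 bases between them, is shown here in the promoters of the 5 called genes of the list that carried it before the transcription start, so that it can be read beside their values. Each line gives the 150 bases before the start, 5′ to 3′ on the strand of the gene, from RefSeq on GRCm38.p6, with matches on either strand in capitals (on the opposite strand the half-sites read TTTC).
Ifit1: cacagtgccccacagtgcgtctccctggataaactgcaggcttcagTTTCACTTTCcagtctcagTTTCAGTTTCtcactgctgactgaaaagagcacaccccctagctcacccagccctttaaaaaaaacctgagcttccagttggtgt
Rsad2: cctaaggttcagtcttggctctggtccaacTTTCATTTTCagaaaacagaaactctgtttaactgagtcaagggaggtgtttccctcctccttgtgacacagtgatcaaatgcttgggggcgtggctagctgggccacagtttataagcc
Bst2: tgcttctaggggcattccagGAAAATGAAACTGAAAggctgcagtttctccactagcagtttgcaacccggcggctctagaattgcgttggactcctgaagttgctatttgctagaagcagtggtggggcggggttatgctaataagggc
Oas1a: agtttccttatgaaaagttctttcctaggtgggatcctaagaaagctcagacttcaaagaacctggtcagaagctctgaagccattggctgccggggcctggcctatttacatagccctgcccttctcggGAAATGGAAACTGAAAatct
B2m: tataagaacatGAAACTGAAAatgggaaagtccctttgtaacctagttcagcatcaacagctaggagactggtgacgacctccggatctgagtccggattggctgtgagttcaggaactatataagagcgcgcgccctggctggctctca
Ifit1 lies at chr19:34640739-34640888 on the plus strand, with matches that begin 104 and 85 bases before the start. Rsad2 lies at chr12:26456453-26456602 on the minus strand, with 1 match 120 bases before it. Bst2 lies at chr8:71537473-71537622 (minus), where 2 matches that share bases begin 130 and 124 bases before the start, and Oas1a at chr5:120907526-120907675 (minus), where 2 such matches begin 20 and 14 bases before it. B2m lies at chr2:122147537-122147686 (plus), with a match 139 bases before the start.

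Over the window from 250 bases before to 50 after the start, on both strands, 9 of the 24 tested list genes with a RefSeq promoter held the element (37.5%), and 6 of the 12 with a called interaction (50%). Among all tested genes with a promoter the share was 403 of 11566 (3.48%). The sixth called gene with a match, Ifitm3, held it after the start. Rtp4 and Usp18 had no entry in the promoter table. A match is a string of letters, not a measured binding site.

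Rtp4, a chaperone of membrane receptors and a known interferon-induced antiviral factor, had the lowest interaction on the list. It read 89.5, 81.1 and 90.3 on the +/+ progenitor arrays, 375.0, 242.2 and 258.4 on the -/- progenitor arrays, 1255.0, 1167.4 and 1287.5 on the +/+ neuron arrays and 733.9, 671.3 and 829.4 on the -/- neuron arrays. The -/- arrays lay above the +/+ arrays in progenitors and below them in neurons, with no overlap at either stage. The genotype effect was 1.71 (adjusted p 2.82e-05) in progenitors and -0.73 (adjusted p 0.0345) in neurons, and the interaction was -2.44 (SE 0.31, adjusted p 9.37e-05), a 5.44-fold difference between the stages. The call in neurons alone was lost without any 1 of neuron +/+ replicates 1, 2 and 3 and neuron -/- replicates 1 and 2 (highest adjusted p 0.125), while the interaction was called in every fit with 1 array left out. On Rtp4 as on Usp18, Ifit1, Rsad2, Bst2 and Ifitm3, progenitor -/- replicate 1 was the highest of its group, and with 1 array left out 15 or 16 genes of the list were called lower.

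Usp18, which removes the ubiquitin-like modifier ISG15 and damps interferon signalling, read 91.4, 93.9 and 112.8 on the +/+ progenitor arrays, 296.3, 198.1 and 210.3 on the -/- progenitor arrays, 497.9, 459.1 and 416.1 on the +/+ neuron arrays and 251.4, 259.4 and 280.4 on the -/- neuron arrays. Its level rose with differentiation in +/+ cells and stayed between the +/+ levels of both stages in -/- cells. The effects were 1.22 and -0.79 (adjusted p 0.000715), and the interaction was -2.01 (SE 0.19, adjusted p 6.87e-06). Ifit1, which binds viral RNA that lacks a methylated cap, had the promoter with a pair of separate elements above. It read 27.5, 21.6 and 25.5 on the +/+ progenitor arrays, 63.3, 38.1 and 47.9 on the -/- progenitor arrays, 186.5, 144.0 and 149.6 on the +/+ neuron arrays and 93.3, 73.0 and 102.8 on the -/- neuron arrays. The +/+ progenitor arrays lay under the lower bound for signal and the groups did not overlap within a stage. Its interaction of -1.78 (SE 0.24, adjusted p 0.000169) became -1.22 with dim values raised to the 40th percentile of their array.

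Rsad2, or viperin, an enzyme that makes a chain-terminating nucleotide, read 105.6, 97.1 and 113.9 on the +/+ progenitor arrays, 187.9, 158.3 and 163.7 on the -/- progenitor arrays, 242.3, 209.7 and 240.4 on the +/+ neuron arrays and 142.0, 143.8 and 144.6 on the -/- neuron arrays. The rise in -/- progenitors, 0.68 (adjusted p 3.18e-05), and the fall in -/- neurons, -0.68 (adjusted p 6.54e-05), were equal in size, and the interaction was -1.36 (SE 0.12, adjusted p 6.38e-06). Oasl2, a member of the oligoadenylate synthetase family, and Xaf1, a promoter of apoptosis, changed sign likewise, with interactions of -1.41 (or -0.74 with dim values raised to the bound) and -1.30. Bst2, or tetherin, which holds budding virions on the cell, read 412.2, 416.5 and 414.0 on the +/+ progenitor arrays, 658.9, 501.0 and 540.9 on the -/- progenitor arrays, 650.1, 541.8 and 626.0 on the +/+ neuron arrays and 346.3, 372.9 and 374.7 on the -/- neuron arrays, with an interaction of -1.17 (SE 0.13, adjusted p 2.32e-05).

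Other members differed at 1 stage. Ifitm3, which blocks virus entry, rose 2.06-fold in -/- progenitors and had a difference of -0.18 (adjusted p 0.19) in neurons, where the genotypes overlapped. Ifi35, a cytoplasmic interferon-induced protein, did the same with 0.91 (adjusted p 1.67e-05) and -0.04 (adjusted p 0.883), and its interaction of -0.95 was -0.60 with the mean of its probe sets. Irf9, an interferon regulatory factor that binds DNA, fell in -/- neurons by 0.69 (adjusted p 0.000225) and had a difference of 0.22 (adjusted p 0.175) in progenitors. B2m, the light chain of MHC class I, had an interaction of -0.46 and Oas1a, an activator of RNA decay, one of -0.86, both smaller than those above. Not all of the list took part: H2-K1 and H2-D1, MHC class I heavy chains, had interactions of -0.25 (adjusted p 0.068) and -0.16 (adjusted p 0.255), and those of the transcription factors Irf1 and Stat2 were -0.24 (adjusted p 0.16) and -0.10 (adjusted p 0.72). Bst2, Ifitm3, Ifi35, Irf9, B2m, Oas1a, Irf7 and Psmb8 were picked after their values were seen, as were 2 interferon-induced genes outside the list. These were Irgm1, a GTPase of autophagy, at -1.56 (SE 0.14, adjusted p 6.52e-06), and Lgals3bp, a secreted glycoprotein, at -1.35 (SE 0.19, adjusted p 0.000203).

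**Figure D2:**
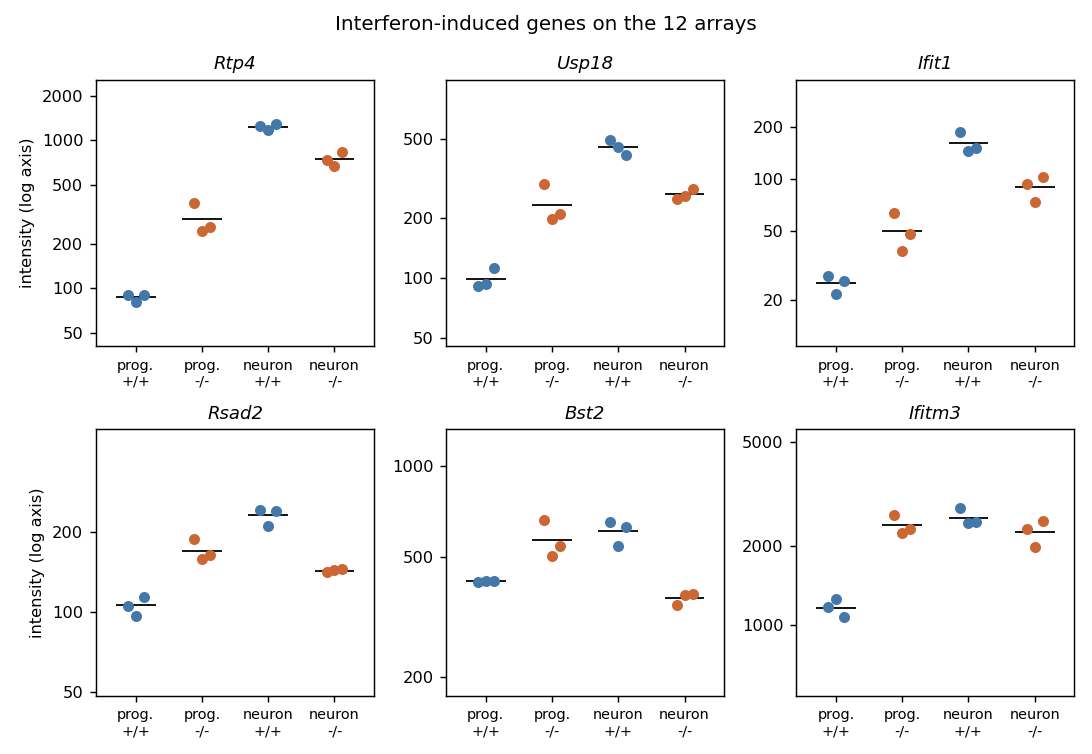
Intensity on a log axis for 6 interferon-induced genes on the 12 arrays, 1 point per array, blue for +/+ and orange for -/-, with a line at the group mean. In each panel the -/- arrays lie above the +/+ arrays in progenitors. In neurons they lie below them for Rtp4, Usp18, Ifit1, Rsad2 and Bst2, and overlap them for Ifitm3.

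Of the 8 largest changes of sign under the naming rule, Ankrd1, Cnn1 and Myl9 encode proteins of muscle and the cytoskeleton. Ankrd1, a nuclear repeat protein of muscle that is also a much used readout of the coactivator YAP, read 197.0, 257.3 and 237.9 on the +/+ progenitor arrays, 393.8, 542.9 and 501.2 on the -/- progenitor arrays, 95.0, 63.7 and 77.8 on the +/+ neuron arrays and 41.4, 33.4 and 29.9 on the -/- neuron arrays. The genotypes did not overlap at either stage. The effect was 1.05 (adjusted p 0.000224) in progenitors and -1.15 (adjusted p 0.000151) in neurons, and the interaction -2.19 (SE 0.23, adjusted p 1.6e-05). Ccn2, a secreted matricellular protein and another YAP target, read 4584.2, 4548.6 and 5271.9 on the +/+ progenitor arrays, 6710.2, 6833.1 and 6540.9 on the -/- progenitor arrays, 3979.3, 3908.8 and 4394.1 on the +/+ neuron arrays and 2413.4, 2016.1 and 1793.8 on the -/- neuron arrays, with the same order of groups and an interaction of -1.47 (SE 0.12, adjusted p 2.48e-06). Ccn1, its relative, had an interaction of -1.53, and Edn1, the peptide endothelin 1, one of -1.39. These 3 were picked after their values were seen.

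Cnn1, or calponin, which binds actin, read 80.4, 79.9 and 88.1 on the +/+ progenitor arrays, 133.1, 153.4 and 138.7 on the -/- progenitor arrays, 66.0, 40.3 and 87.9 on the +/+ neuron arrays and 31.8, 29.0 and 25.1 on the -/- neuron arrays. The genotypes separated at both stages, although neuron +/+ replicate 2 lay well below its group mates, and the interaction was -1.85 (SE 0.26, adjusted p 0.000233). Myl9, a regulatory light chain of myosin, had effects of 0.80 and -0.89 and an interaction of -1.69 (SE 0.16, adjusted p 6.87e-06). Acta2, smooth muscle actin, read 7564.9, 7669.6 and 8372.4 on the +/+ progenitor arrays, 10547.1, 11755.1 and 11463.0 on the -/- progenitor arrays, 6186.2, 4307.5 and 7830.2 on the +/+ neuron arrays and 3645.7, 2924.4 and 2634.5 on the -/- neuron arrays. Its fall in -/- neurons passed, at -0.96 (adjusted p 0.00124), the difference in progenitors was 0.52 (adjusted p 0.0512), and the interaction was -1.48 (SE 0.24, adjusted p 0.000971). Tagln, an actin-binding protein of smooth muscle, had an interaction of -1.62 (SE 0.28, adjusted p 0.00151), and its genotypes overlapped in neurons. Actg2, another smooth muscle actin named after its values were seen, rose in -/- progenitors, at 0.95 (adjusted p 0.00165), with -0.40 (adjusted p 0.177) in neurons. No list of smooth muscle genes was drawn up.

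Most genes of the mesenchymal list were called higher in -/- progenitors and fewer in -/- neurons, where 6 were lower. Acta2, described above, is on this list, and 3 of its genes were called at both stages with opposite sign. Of 36 tested fibroblast and mesenchyme genes, 13 had a lower genotype effect in neurons and 1 a higher one, with a median interaction of -0.27. In progenitors 27 were higher and 1 lower in -/- cells (median 0.70), and in neurons 18 were higher and 6 lower (median 0.43). The shares over all tested genes were 7.81% higher and 9.19% lower in progenitors, and 5.95% and 7.27% in neurons. For the interaction they were 5.67% higher and 5.41% lower. Thy1, a surface glycoprotein of fibroblasts and neurons, rose by 1.23 in -/- progenitors and had a difference of 0.18 (adjusted p 0.19) in neurons, and its interaction was -1.05 (SE 0.12, adjusted p 3.82e-05). Pdgfrb, a receptor of mesenchymal and mural cells, rose by 1.49 and 0.70 (interaction -0.79, adjusted p 0.00657). Mgp, an inhibitor of calcification, read 233.4, 230.4 and 265.2 on the +/+ progenitor arrays, 986.4, 971.2 and 941.4 on the -/- progenitor arrays, 425.2, 216.9 and 362.7 on the +/+ neuron arrays and 465.3, 433.2 and 448.6 on the -/- neuron arrays, with an interaction of -1.51 (SE 0.33, adjusted p 0.00769). Col6a3, a collagen VI chain, was the 1 called higher, at 0.53 (SE 0.13, adjusted p 0.0132). The main fibrillar collagens had interactions that did not pass: -0.47 for Col1a1 (adjusted p 0.16), -0.21 for Col1a2 (adjusted p 0.348) and -0.06 for Col3a1 (adjusted p 0.8). Thy1, Pdgfrb and Col6a3 were named after their values were seen.

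The summed intensity of 8 mesenchymal markers was 9491 to 10150 in +/+ progenitors and 16861 to 17341 in -/- progenitors, and 15619 to 18115 in +/+ neurons and 25942 to 30249 in -/- neurons. All 8 were measured and none was under the lower bound on all 12 arrays. The summed markers were higher in -/- cells at both stages. Col1a2 and Col3a1 carried most of the sum, with means of 3446 and 3582 in +/+ and 5711 and 6629 in -/- progenitors. In neurons their means were 7313 and 4832 in +/+ and 10469 and 8578 in -/- cells. Of the 8 markers, only Thy1 and Pdgfrb had a called interaction. The part of mesenchymal cells was not tested.

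**Figure D3:**
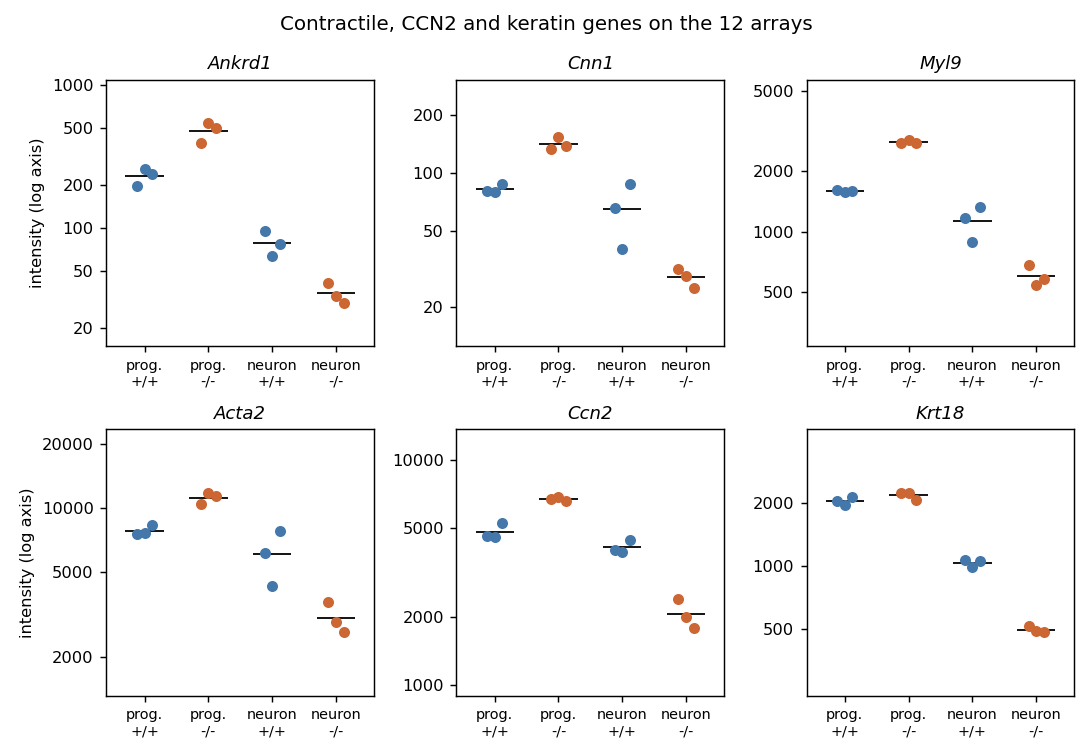
Intensity on a log axis for Ankrd1, Cnn1, Myl9, Acta2, Ccn2 and the keratin gene Krt18 on the 12 arrays, blue for +/+ and orange for -/-, with a line at the group mean. In the first 5 panels the -/- progenitor arrays lie highest and the -/- neuron arrays lowest. For Krt18 the genotypes overlap in progenitors and part in neurons.

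Krt7, a keratin of simple epithelia on the placental list, read 95.2, 98.5 and 107.7 on the +/+ progenitor arrays, 172.9, 190.6 and 171.9 on the -/- progenitor arrays, 70.9, 61.1 and 80.0 on the +/+ neuron arrays and 35.6, 37.4 and 38.1 on the -/- neuron arrays. It changed sign without overlap, with effects of 0.82 (adjusted p 1.79e-05) and -0.91 (adjusted p 1.45e-05) and an interaction of -1.73 (SE 0.14, adjusted p 2.23e-06). Krt18, which lies on the endoderm list and pairs with keratin 8 in simple epithelia, read 2026.3, 1950.7 and 2128.9 on the +/+ progenitor arrays, 2213.7, 2223.8 and 2066.8 on the -/- progenitor arrays, 1071.7, 983.7 and 1051.4 on the +/+ neuron arrays and 518.0, 491.8 and 484.5 on the -/- neuron arrays, and its interaction of -1.15 (SE 0.08, adjusted p 3.49e-07) came from neurons, where -/- fell by 1.05.

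Several placental genes were high in -/- progenitors and near background in both neuron groups. Of 17 tested placental and trophoblast genes, 10 had a lower genotype effect in neurons and 1 a higher one (median interaction -1.28, median effect 0.78 in progenitors and 0.03 in neurons). Over all tested genes 5.41% were lower and 5.67% higher. Prl7b1, a placental member of the prolactin family, had the most negative interaction of the genes named under the rule, and read 53.1, 36.3 and 42.4 on the +/+ progenitor arrays, 217.1, 276.6 and 278.1 on the -/- progenitor arrays, 16.6, 12.2 and 13.4 on the +/+ neuron arrays and 13.7, 14.9 and 14.1 on the -/- neuron arrays. The -/- progenitors stood 5.78-fold above the +/+ progenitors, and all 6 neuron arrays lay under the lower bound for signal. The interaction was -2.50 (SE 0.21, adjusted p 2.35e-06), and -2.50 with dim values raised to the bound.

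Prl2a1, Prl7d1 and Prl4a1, further prolactin relatives, had interactions of -2.26, -2.16 and -2.01. These genes lie in 1 cluster of near copies on chromosome 13, so that a probe set may read more than 1 of them. Ctsj, a placental cathepsin, and Serpinb9g, a serine protease inhibitor, also on chromosome 13, had interactions of -1.75 and -2.08. Tpbpa, a marker of the spongiotrophoblast, read 59.4, 49.5 and 63.8 on the +/+ progenitor arrays, 152.4, 212.9 and 175.7 on the -/- progenitor arrays, 29.0, 27.4 and 30.4 on the +/+ neuron arrays and 28.3, 31.6 and 28.6 on the -/- neuron arrays, with an interaction of -1.60 (SE 0.15, adjusted p 8.28e-06). In all of these the -/- progenitor arrays lay above the others without overlap. Early trophoblast regulators did not share the pattern: Cdx2 had an interaction of 0.60 (adjusted p 0.0615), Ascl2 of 0.05 (adjusted p 0.938) and Hand1 of 0.19 (adjusted p 0.582). Rhox9, a homeobox gene of germ cells and placenta, changed sign, with effects of 0.78 (adjusted p 1.92e-05) and -0.49 (adjusted p 0.00238). Its relative Rhox6 did not, and was lower in -/- cells at both stages, at -0.26 (adjusted p 0.0311) and -0.87 (adjusted p 1.97e-06). Both were named after their values were seen.

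On the other side, genes that were low in -/- progenitors and closer to +/+ in neurons made up 377 of the 736 that differed in progenitors alone and 82 of the 102 with a smaller effect of 1 sign in neurons. Agtr2, the type 2 angiotensin receptor on chromosome X, had the highest interaction and changed sign. It read 94.5, 77.4 and 92.3 on the +/+ progenitor arrays, 32.7, 36.9 and 32.3 on the -/- progenitor arrays, 123.7, 108.3 and 122.8 on the +/+ neuron arrays and 243.8, 246.2 and 162.3 on the -/- neuron arrays. The -/- arrays lay below the +/+ arrays in progenitors and above them in neurons, with effects of -1.35 (adjusted p 1.1e-06) and 0.85 (adjusted p 0.000247) and an interaction of 2.20 (SE 0.18, adjusted p 2.23e-06). Fbxo2, a ubiquitin ligase subunit that recognises glycoproteins in neurons, changed sign as well, with -0.61 (adjusted p 0.00114), 0.77 (adjusted p 0.000236) and 1.38 (SE 0.16, adjusted p 4.62e-05).

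Gulo, the last enzyme of vitamin C synthesis, read 86.9, 102.1 and 90.1 on the +/+ progenitor arrays, 25.4, 24.2 and 23.1 on the -/- progenitor arrays, 17.4, 18.1 and 15.7 on the +/+ neuron arrays and 14.1, 14.4 and 15.2 on the -/- neuron arrays. Its neuron arrays and the -/- progenitor arrays all lay under the lower bound, and the interaction was 1.68 (SE 0.11, adjusted p 1.48e-07), or 1.32 at the bound. Car8, a carbonic anhydrase relative without catalytic activity, read 444.2, 428.2 and 435.7 on the +/+ progenitor arrays, 83.6, 100.9 and 91.2 on the -/- progenitor arrays, 272.7, 247.4 and 320.1 on the +/+ neuron arrays and 165.9, 205.1 and 175.3 on the -/- neuron arrays. It fell by 2.24 in -/- progenitors and by 0.62 in -/- neurons (interaction 1.62 (SE 0.19, adjusted p 4.58e-05)), so the effect kept its sign. P4ha2, a catalytic subunit of collagen prolyl 4-hydroxylase, read 2399.6, 2401.6 and 2501.6 on the +/+ progenitor arrays, 723.3, 651.1 and 647.8 on the -/- progenitor arrays, 1212.9, 1063.3 and 1164.8 on the +/+ neuron arrays and 994.6, 851.9 and 823.8 on the -/- neuron arrays, with a fall by 1.85 and by 0.37 (interaction 1.48 (SE 0.12, adjusted p 1.38e-06)). Its partner in function P4ha1, another catalytic subunit, followed at 0.68 (SE 0.08, adjusted p 6.13e-05).

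Pdgfra, a receptor of mesenchymal, endodermal and oligodendrocyte precursor cells, read 2105.0, 2100.8 and 1975.1 on the +/+ progenitor arrays, 756.6, 779.1 and 756.8 on the -/- progenitor arrays, 1610.2, 1570.2 and 1615.8 on the +/+ neuron arrays and 1413.7, 1507.2 and 1570.1 on the -/- neuron arrays. The -/- progenitor arrays stood alone at the low end, and the difference in neurons was -0.10 (adjusted p 0.409) (interaction 1.33 (SE 0.10, adjusted p 6.22e-07)). Lpar3, a receptor for lysophosphatidic acid, Fgfr4, an FGF receptor of endoderm, and Scube2, a secreted carrier of Hedgehog, had interactions of 1.45, 1.40 and 1.34 with no called effect in neurons. The 2 other probe sets of Fgfr4 read 0.04 (adjusted p 0.933) and 0.00 (adjusted p 0.994), and the mean of its probe sets 0.48 (adjusted p 0.012). Dkk1, a secreted Wnt inhibitor, read 826.5, 899.8 and 807.6 on the +/+ progenitor arrays, 256.5, 240.8 and 219.6 on the -/- progenitor arrays, 62.8, 62.9 and 69.4 on the +/+ neuron arrays and 42.8, 45.1 and 50.5 on the -/- neuron arrays (interaction 1.33 (SE 0.33, adjusted p 0.0153)).

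The endoderm list split. Of 26 tested genes, 7 had a higher genotype effect in neurons and 4 a lower one, with a median of 0.02. The shares over all genes were 5.67% and 5.41%. Sox7, a regulator of primitive endoderm, read 285.5, 287.2 and 337.0 on the +/+ progenitor arrays, 90.8, 93.9 and 77.1 on the -/- progenitor arrays, 128.3, 126.5 and 123.4 on the +/+ neuron arrays and 84.8, 75.2 and 84.9 on the -/- neuron arrays, with falls by 1.79 and 0.62 and an interaction of 1.16 (SE 0.15, adjusted p 8.67e-05). Gata4, another regulator of that layer, had an interaction of 0.73 (SE 0.17, adjusted p 0.0119), and Cited1, a transcriptional cofactor, one of 0.82 (SE 0.14, adjusted p 0.00127). The retinol carrier Rbp4 went the other way, at -0.70 (SE 0.17, adjusted p 0.0126). Summed over 6 endoderm markers, the intensity was 6806 to 7075 in +/+ and 3757 to 3784 in -/- progenitors, and 4813 to 7806 in +/+ and 5130 to 5931 in -/- neurons, where the genotypes overlapped. Ttr, a thyroid hormone carrier, made up most of the sum in neurons and overlapped there, while Sox17 (means of 910 in +/+ and 382 in -/- neurons), Gata4 and Gata6 were lower and Foxa1 (519 and 1442) higher in -/- neurons without overlap. The part of endoderm-like cells was not tested.

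Of 31 tested pluripotency genes, 10 had a higher genotype effect in neurons and none a lower one, against 5.67% and 5.41% of all genes. The median interaction was 0.14, and the median effect was -0.34 in progenitors and -0.09 in neurons. Pou5f1, the core pluripotency factor OCT4, read 242.7, 257.5 and 272.0 on the +/+ progenitor arrays, 143.2, 167.8 and 145.0 on the -/- progenitor arrays, 17.7, 12.7 and 12.9 on the +/+ neuron arrays and 17.1, 16.4 and 14.2 on the -/- neuron arrays. It fell by 0.76 in -/- progenitors, and all 6 neuron arrays were under the lower bound, where genotype values overlapped (interaction 0.90 (SE 0.14, adjusted p 0.000781), 0.78 at the bound). Nanog and Dppa2, which accompany it, had interactions of 0.96 (0.59 at the bound) and 0.75 (0.44 with the mean of its probe sets), with neuron levels under the bound as well. Klf4, expressed beyond pluripotent cells, fell by 1.09 in -/- progenitors and by 0.48 in -/- neurons (interaction 0.60 (SE 0.11, adjusted p 0.00143), named after its values were seen). Tbx3, a T-box repressor, read 233.0, 230.3 and 239.7 on the +/+ progenitor arrays, 196.0, 189.9 and 184.1 on the -/- progenitor arrays, 53.2, 60.6 and 60.2 on the +/+ neuron arrays and 107.4, 106.1 and 102.7 on the -/- neuron arrays. Its -/- neuron arrays lay above the +/+ neuron arrays, and the interaction was 1.15 (SE 0.11, adjusted p 1.08e-05). The summed pluripotency markers were 1766 to 1836 in +/+ and 939 to 1003 in -/- progenitors, and 1096 to 1219 and 823 to 915 in neurons. Klf4 carried most of this sum, with means of 1319 and 621 in progenitors and 979 and 702 in neurons, where Pou5f1, Nanog and Zfp42 overlapped between genotypes. Zfp42 had means under the bound in all 4 groups. Its called interaction of 0.66 was 0.03 (adjusted p 0.812 by limma) with dim values raised to the bound.

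Several genes of monoamine neurons rose further in -/- neurons. Of 27 tested midbrain dopaminergic genes, 11 were higher in -/- progenitors (median effect 0.21) and 13 in -/- neurons (median 0.51), and none was lower. Over all tested genes 7.81% were higher in -/- progenitors and 5.95% in -/- neurons, and 5.67% had a higher interaction. Of 12 serotonergic and noradrenergic genes, 3 were higher in progenitors and 4 in neurons, and none was lower. For the interaction, of the 27 dopaminergic genes, 6 had a higher genotype effect in neurons and 1 a lower one (median 0.06), and of the 12 serotonergic and noradrenergic genes 4 had a higher one and none a lower one (median 0.11). Th read 50.8, 44.5 and 56.3 on the +/+ progenitor arrays, 58.8, 51.8 and 45.6 on the -/- progenitor arrays, 62.3, 66.4 and 58.4 on the +/+ neuron arrays and 148.0, 143.7 and 157.5 on the -/- neuron arrays. The genotypes overlapped in progenitors and parted in neurons, where -/- was 2.38-fold higher (difference 1.25 (adjusted p 0.000114), interaction 1.21 (SE 0.24, adjusted p 0.00403)). Ddc, which turns L-DOPA into dopamine and 5-hydroxytryptophan into serotonin, read 309.5, 286.7 and 280.7 on the +/+ progenitor arrays, 577.2, 575.6 and 530.1 on the -/- progenitor arrays, 462.9, 396.3 and 419.2 on the +/+ neuron arrays and 1253.3, 1369.0 and 1338.0 on the -/- neuron arrays. It rose in -/- cells at both stages, more in neurons (interaction 0.69 (SE 0.10, adjusted p 0.000367)).

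Corin, a protease that marks the midbrain floor plate, had 1.60 (adjusted p 8.74e-06) in neurons and an interaction of 1.04 (SE 0.24, adjusted p 0.01). Slc6a3, the dopamine transporter, lay under the lower bound in 3 of the 4 groups, and its interaction of 0.76 (SE 0.18, adjusted p 0.0123) was not called with dim values raised to the bound (0.44, adjusted p 0.0646). Tph2, which starts serotonin synthesis in neurons, read 9.7, 10.7 and 11.7 on the +/+ progenitor arrays, 15.7, 13.8 and 16.5 on the -/- progenitor arrays, 32.3, 28.2 and 40.1 on the +/+ neuron arrays and 125.1, 104.3 and 106.6 on the -/- neuron arrays. The -/- neuron arrays lay far above all others, and the means of the other 3 groups were under the bound (interaction 1.24 (SE 0.17, adjusted p 0.000212), 1.52 with dim values raised to the bound). Slc6a4, the serotonin transporter, followed with 1.49 (adjusted p 1.51e-07) in neurons and 1.05 (SE 0.15, adjusted p 0.000272), and Maob, which degrades monoamines, with 0.89 (adjusted p 1.12e-05) and 0.85 (SE 0.14, adjusted p 0.000737). The dopaminergic markers summed to 1755 to 1802 in +/+ and 2247 to 2597 in -/- progenitors, and to 2058 to 2186 in +/+ and 3716 to 3746 in -/- neurons. Ddc, which also serves serotonin synthesis, carried the largest part of the difference in neurons, with means of 426 and 1320, against 62.4 and 150 for Th. Of the 11 markers 10 were measured, and 3 had a called interaction, all higher. Lmx1b, En1 and Aldh1a1 had negative interactions that were not called.

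**Figure D4:**
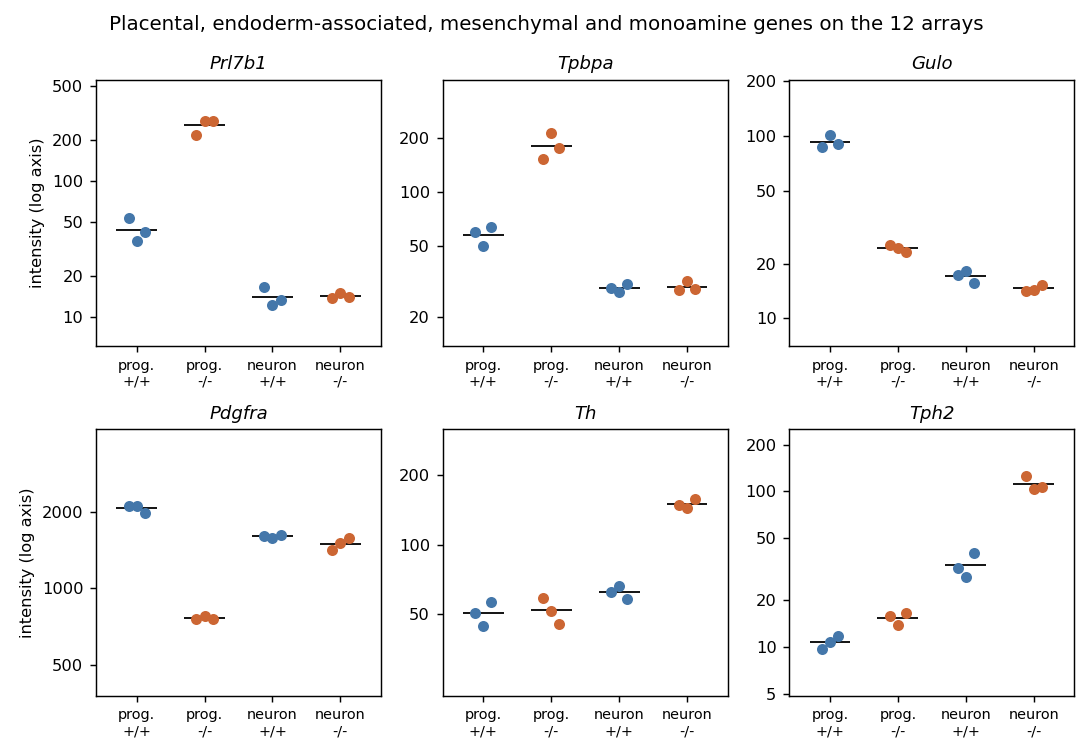
Intensity on a log axis for 6 genes on the 12 arrays, blue for +/+ and orange for -/-, with a line at the group mean. Prl7b1 and Tpbpa are highest in -/- progenitors, Gulo and Pdgfra fall in -/- progenitors, and Th and Tph2 are highest in -/- neurons. The neuron arrays of Prl7b1, Tpbpa and Gulo all lie under the lower bound for signal, which was at most 37.9.

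Genes outside the neuronal lists rose in -/- neurons and little or not at all in -/- progenitors. Gjb6, the astrocytic gap junction protein connexin 30 and a member of the astroglial list, read 26.4, 30.7 and 29.5 on the +/+ neuron arrays and 96.0, 98.2 and 95.4 on the -/- neuron arrays, and less than 36.6 on every progenitor array. The -/- neuron arrays lay within a narrow range far above the other 9, which were all under the lower bound (interaction 1.66 (SE 0.10, adjusted p 1.48e-07), 1.35 at the bound). Abcc9, a regulatory subunit of ATP-sensitive potassium channels found in mural cells, read 15.7, 16.2 and 18.6 on the +/+ progenitor arrays, 18.6, 23.1 and 28.2 on the -/- progenitor arrays, 30.1, 25.2 and 22.4 on the +/+ neuron arrays and 107.9, 116.3 and 102.1 on the -/- neuron arrays (interaction 1.61 (SE 0.17, adjusted p 1.74e-05)). With no filter on low values another probe set stood for Abcc9, with an interaction of 0.27 (adjusted p 0.229). Serpinb1a, an inhibitor of neutrophil proteases, Itgbl1, an integrin-like secreted protein, and Ctsk, a collagen-degrading cathepsin, had interactions of 1.46, 1.48 and 1.28. Astroglial markers summed to 188 to 213 on the 6 progenitor arrays, 2291 to 2928 in +/+ neurons and 2865 to 3319 in -/- neurons, and of 18 tested astroglial genes 3 had a higher effect in neurons and 1 a lower one, Cd44, a hyaluronan receptor, at -0.90 (SE 0.20, adjusted p 0.00912). Over all genes 5.67% were higher and 5.41% lower. The part of astroglia was not tested. Calcr, the calcitonin receptor, an imprinted gene, read 125.5, 89.5 and 98.5 on the +/+ neuron arrays, 259.4, 229.8 and 212.6 on the -/- neuron arrays and at most 20.8 on the progenitor arrays (interaction 1.20 (SE 0.19, adjusted p 0.000596)).

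Neurofilament genes ran against the monoamine genes. Of 36 tested pan-neuronal genes, 6 had a lower genotype effect in neurons and none a higher one (median -0.12), and 34 of the 36 rose from progenitors to neurons in either genotype. Over all genes the interaction was lower for 5.41% and higher for 5.67%. With the step to neurons 34.6% of all genes rose in +/+ and 35.2% in -/- cells. Nefm, the middle neurofilament subunit, read 391.5, 438.9 and 431.9 on the +/+ progenitor arrays, 483.1, 481.7 and 492.1 on the -/- progenitor arrays, 516.2, 544.0 and 407.6 on the +/+ neuron arrays and 279.2, 268.9 and 326.8 on the -/- neuron arrays. Its +/+ and -/- neuron arrays did not overlap, with -0.74 (adjusted p 0.000697) in neurons and an interaction of -0.95 (SE 0.18, adjusted p 0.00227). Nefl, the light subunit, fell by 0.58 in -/- neurons (interaction -0.69 (SE 0.11, adjusted p 0.000867)), and both genes lie on chromosome 14. Ina, a further neuronal intermediate filament, had an interaction of -0.46 (SE 0.10, adjusted p 0.00911). Chgb, a secretory granule protein, differed in progenitors instead, at 1.37 (adjusted p 7.39e-07) against 0.33 (adjusted p 0.101) in neurons (interaction -1.05 (SE 0.18, adjusted p 0.00116)). Summed neuronal markers were 6737 to 6915 in +/+ and 6620 to 6666 in -/- progenitors, and 30443 to 34262 and 28621 to 29681 in neurons.

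Of 31 axon guidance genes 7 were lower and 1 higher (median -0.23), against 5.41% and 5.67% of all genes. The semaphorins Sema3d, at -1.20 (SE 0.18, adjusted p 0.000529), and Sema3c, at -0.87 (SE 0.16, adjusted p 0.00219), which steer growing axons, and the semaphorin receptor Nrp2, at -0.84 (SE 0.13, adjusted p 0.000581), had effects that were called in progenitors alone. Efnb3, a ligand of Eph receptors, rose in -/- neurons (interaction 0.55 (SE 0.12, adjusted p 0.00606)). Without either progenitor +/+ replicate 1 or neuron -/- replicate 2, 4 axon guidance genes were lower. Genes of transmitter identity were called in either direction at a share of 14.3%, against 11.1% of all genes. Of 21 glutamatergic and GABAergic genes 2 were higher and 1 lower, with Dlx1, a factor of GABAergic neurons, at 0.54 (SE 0.09, adjusted p 0.00164) and Lhx6, of cortical interneurons, at -0.45 (SE 0.10, adjusted p 0.0103). None of 28 ion channel genes was called in either direction by limma, 5 had an unadjusted p under 0.05, and after quantile normalization 1 was called higher. Of 19 neuropeptide genes 1 was higher and 2 lower, with Pnoc, which encodes nociceptin, falling in -/- cells at both stages (interaction -0.58 (SE 0.14, adjusted p 0.0134)).

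Progenitor genes differed one by one. Nes, or nestin, the intermediate filament of neural stem cells, read 937.0, 1041.2 and 1125.3 on the +/+ progenitor arrays. It read 1385.8, 1426.5 and 1348.4 on the -/- progenitor arrays. On the neuron arrays it read 239.0, 201.1 and 236.2 in +/+ and 183.5, 175.0 and 189.5 in -/- cells. The interaction was -0.72 (SE 0.13, adjusted p 0.00221). Other probe sets of Nes read -0.56 (adjusted p 0.259) and -0.34 (adjusted p 0.491). The genotype effect in neurons, -0.30 (adjusted p 0.0472), was lost in 11 of 18 fits with 1 array left out. Hes5, the Notch effector that holds progenitors undifferentiated, read 339.3, 332.1 and 274.5 on the +/+ progenitor arrays, 208.2, 181.5 and 166.9 on the -/- progenitor arrays, 552.1, 513.2 and 504.7 on the +/+ neuron arrays and 520.9, 497.0 and 545.7 on the -/- neuron arrays. The -/- progenitors were low and the neurons of both genotypes overlapped (interaction 0.76 (SE 0.17, adjusted p 0.00976)). Dll1, a Notch ligand, at 0.47 (SE 0.08, adjusted p 0.00121), and Neurog1, a proneural factor, at 0.83 (SE 0.16, adjusted p 0.00301), showed the same order, Neurog1 with 0.45 for the mean of its probe sets. In all, 5 of 30 Notch and proneural genes were higher and none lower, and of 28 neural progenitor genes 5 were higher and 1 lower. Among all genes 5.67% were higher and 5.41% lower. Prom1, the stem cell surface protein prominin 1, rose in -/- cells at both stages and more in neurons (interaction 0.75 (SE 0.09, adjusted p 4.09e-05)).

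Cell cycle genes had a lower genotype effect in neurons. Of 41 tested, 12 were lower and none higher (median -0.29), against 5.41% and 5.67% of all genes. For all 12 the genotype effect was called in neurons alone. The median effect was 0.01 in progenitors and -0.25 in neurons, and 39 of the 41 fell with the step to neurons in +/+ cells. Mcm5, a subunit of the replicative helicase, read 2755.4, 2804.8 and 2748.8 on the +/+ progenitor arrays, 2714.9, 2679.8 and 2603.1 on the -/- progenitor arrays, 310.5, 296.0 and 367.6 on the +/+ neuron arrays and 213.0, 211.9 and 238.8 on the -/- neuron arrays (interaction -0.49 (SE 0.10, adjusted p 0.00534)). Cdk1, the mitotic kinase, read 2593.3, 2667.5 and 2518.8 on the +/+ progenitor arrays, 2747.2, 2841.8 and 2850.3 on the -/- progenitor arrays, 684.4, 590.7 and 749.1 on the +/+ neuron arrays and 523.2, 506.8 and 539.4 on the -/- neuron arrays (interaction -0.48 (SE 0.09, adjusted p 0.00337)). Every -/- neuron array lay below every +/+ neuron array for both. Ccnd2, a G1 cyclin, at -0.52 (SE 0.10, adjusted p 0.00321), and Rrm2, which makes deoxyribonucleotides, at -0.47 (SE 0.09, adjusted p 0.00306), followed. Without neuron +/+ replicate 2 the number lower was 22, and without progenitor +/+ replicate 3 it was 8.

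Genes of cholesterol and fatty acid synthesis were lower by small amounts, 7 of 24 with none higher (median -0.22). Over all genes 5.41% were lower and 5.67% higher. Fdps, which makes farnesyl diphosphate, at -0.32 (SE 0.08, adjusted p 0.0186), Mvd, an enzyme of the mevalonate pathway, at -0.28 (SE 0.07, adjusted p 0.0147), and Elovl6, a fatty acid elongase, at -0.39 (SE 0.09, adjusted p 0.00999), were among them. With the mean of a gene's probe sets, Mvd (-0.14, adjusted p 0.288) and Elovl6 (-0.19, adjusted p 0.127) were not called. The number lower was 4 without any 1 of progenitor +/+ replicates 1 and 2, progenitor -/- replicates 1 and 2, neuron +/+ replicate 3 or neuron -/- replicate 2. Of 28 linker histone and chromatin genes 6 were lower and 1 higher, against the same shares over all genes. Ezh1 and Ezh2, the alternative methyltransferases of Polycomb complex 2, went opposite ways, with 0.76 (SE 0.11, adjusted p 0.000247) and -0.34 (SE 0.07, adjusted p 0.00553), but with the mean of its probe sets Ezh1 was not called (0.46, adjusted p 0.0766). Hmga2, another high mobility group protein of early progenitors, had -0.72 (SE 0.13, adjusted p 0.00135), and Smarca4, the ATPase of BAF complexes, -0.38 (SE 0.09, adjusted p 0.0126). None of the 3 tested HMGN genes was called by limma, and 1 had an unadjusted p under 0.05: Hmgn3 had an interaction of -0.00 (SE 0.37, adjusted p 0.997) and Hmgn5 one of 0.20 (SE 0.07, adjusted p 0.102).

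Signalling genes split in both directions. Of 47 BMP, TGF-beta and FGF genes 8 were higher and 8 lower, against 5.67% and 5.41% of all genes. Bmp4, a ligand that favours mesoderm and surface fates over neural ones, read 474.6, 489.8 and 550.5 on the +/+ progenitor arrays, 1084.0, 1059.1 and 1085.5 on the -/- progenitor arrays, 242.2, 214.8 and 314.4 on the +/+ neuron arrays and 281.8, 225.6 and 237.0 on the -/- neuron arrays. It rose 2.13-fold in -/- progenitors and overlapped in neurons (interaction -1.13 (SE 0.17, adjusted p 0.000361)), while Bmper, a secreted BMP-binding protein, fell by 1.84 in -/- progenitors and by 0.77 in -/- neurons (interaction 1.06 (SE 0.18, adjusted p 0.00128)). Bmp5, a related ligand, rose in -/- neurons, at 1.45 (adjusted p 6.69e-06) (interaction 0.88 (SE 0.21, adjusted p 0.0122)). Of 43 Hedgehog and Wnt genes 7 were higher and 3 lower. Gli1, a direct target of Hedgehog signalling, rose in -/- neurons (interaction 0.61 (SE 0.13, adjusted p 0.00471)), and so did Sfrp2 (interaction 0.57 (SE 0.12, adjusted p 0.00734)), whereas Frzb fell there (interaction -0.62 (SE 0.13, adjusted p 0.00546)). Both encode secreted Wnt-binding proteins.

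For the lists that follow, the shares over all genes were again 5.67% higher and 5.41% lower. In the IGF axis (11 tested, 1 higher, 3 lower) the binding proteins Igfbp3 and Igfbp2 had interactions of -1.25 (SE 0.22, adjusted p 0.00151) and -0.67 (SE 0.10, adjusted p 0.000487). Among 14 retinoic acid genes 1 was higher, the receptor Rarb at 1.01 (SE 0.19, adjusted p 0.00249), and 3 were lower, among them the binding protein Crabp1 at -0.94 (SE 0.18, adjusted p 0.00321). Of 25 immediate early and heat shock genes 1 was higher and 4 lower, with Dusp1, a phosphatase that ends MAP kinase signals, changing sign at -0.83 (SE 0.08, adjusted p 1.11e-05). Mesodermal and cardiac genes were lower in 6 of 22 cases and higher in 1, skeletal muscle genes higher in 2 of 14. The heat shock list had 2 lower without any 1 of 9 arrays, among them an ES cell array (+/+ replicate 2). The mesodermal list had 2 or 3 lower without any 1 of 7. Summed cardiac and skeletal muscle markers (2 of 4 measured) were 638 to 738 in +/+ and 1676 to 1716 in -/- progenitors, and 139 to 212 on the neuron arrays. Actc1, cardiac actin, made the difference, with means of 622 and 1629 in progenitors, whereas Myl4 read 65.3 and 68.4.

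The remaining lists gave small counts of called genes. The p53 and DNA repair list had 1 higher of 29, hypoxia and glycolysis 3 higher of 25, amino acid and ER stress 4 higher of 28, imprinted genes 3 higher and 3 lower of 37, neural crest 1 and 1 of 16, Hox genes 3 lower of 14, oligodendrocyte genes 2 higher of 10, and endothelial and blood genes 2 lower of 9. With 1 array left out the counts moved by at most a few genes, to 1 lower for Hox genes without progenitor +/+ replicate 3 or progenitor -/- replicate 1, 3 lower for p53 without neuron +/+ replicate 2, 3 lower for neural crest without neuron -/- replicate 1, 5 higher for hypoxia without neuron -/- replicate 3, and 2 higher for ER stress without any 1 of 8 arrays. Over all genes 5.67% were higher and 5.41% lower, 11.1% in all. The share called in either direction was 22.2% for endothelial and blood genes, 21.4% for Hox genes and 20% for oligodendrocyte genes. It was 16.2% for imprinted genes, 14.3% for ER stress, 12.5% for neural crest, 12% for hypoxia and 3.45% for p53. Such counts amount to a few genes each. The counts differ from those of all genes most for the interferon, placental and mesenchymal lists on the lower side and for the serotonergic and pluripotency lists on the higher side. The members of a list are not independent of each other, and the lists were not tested as sets.

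**Figure D5:**
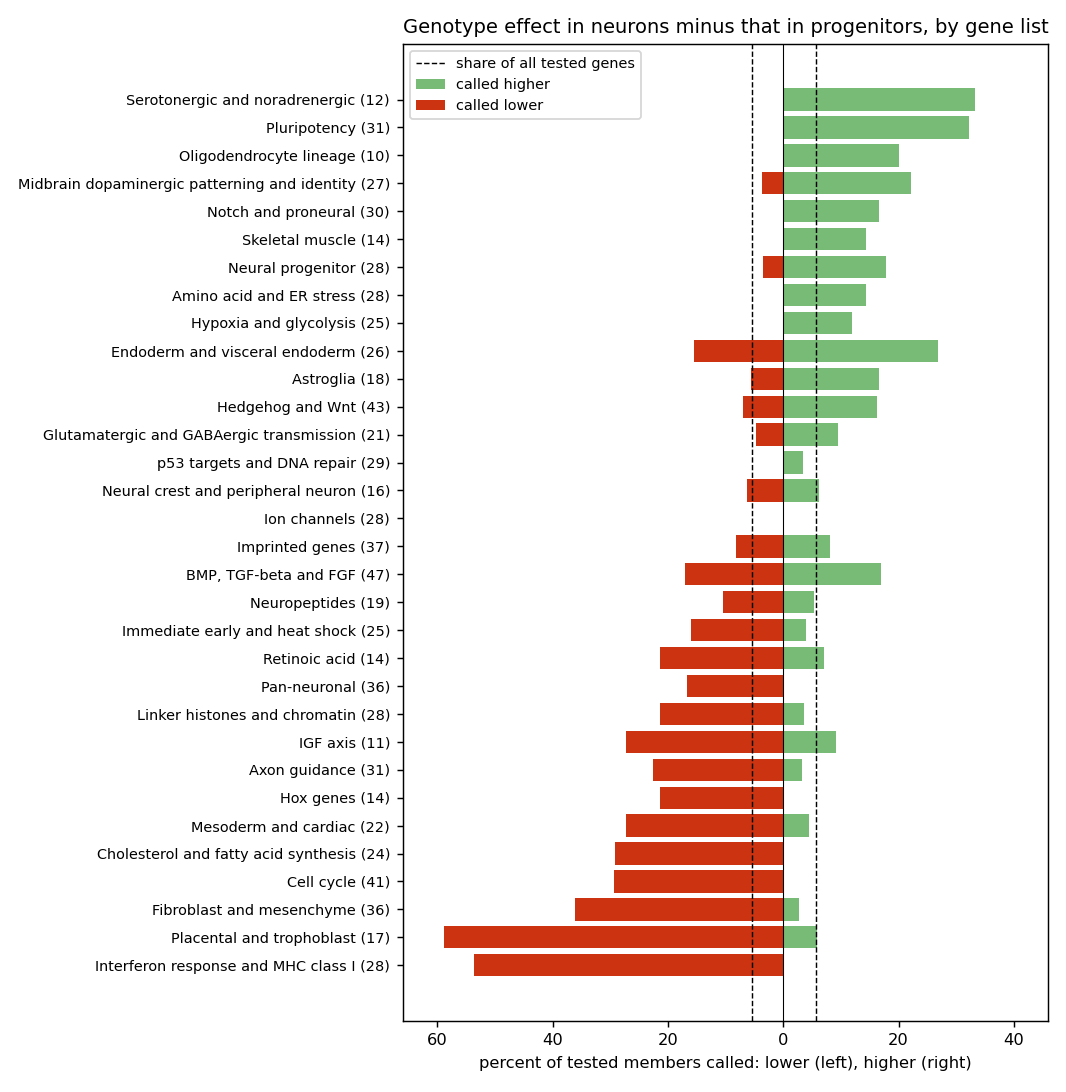
Percent of the tested members of each gene list whose genotype effect was called lower (left, red) or higher (right, green) in neurons than in progenitors, with the number tested in brackets for lists of at least 10 genes. Dashed lines mark the shares over all tested genes, 5.41% lower and 5.67% higher. The interferon list (15 of 28 lower) and the placental list (10 of 17 lower) reach furthest left, the serotonergic list (4 of 12 higher) furthest right.

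Position on the genome went along with part of the result. Of 490 tested genes on chromosome 14, 50 had a higher genotype effect in neurons (10.2%) and 20 a lower one (4.08%). The shares on the other chromosomes were 3.33% to 9% higher and 3.18% to 8.11% lower. On chromosome 14 the genotype effect was called lower for 32.4% of genes in -/- progenitors and for 22.2% in -/- neurons, against 9.19% and 7.27% of all genes. Chromosome 12 followed, with 19.1% and 12.9%. Gulo, Gjb6, Itgbl1, Sox7, Gata4, Nefm, Nefl, Bmp4, Pnoc, Rarb and the interferon regulatory factor Irf9 lie on chromosome 14. The part of a linked region in these genes was not tested.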

How the data were processed

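RNA from mouse embryonic stem cells, neural progenitors and neurons of both Hmgn1 genotypes was hybridised to 18 Affymetrix arrays, 3 per group. The authors deposited a linear intensity for each probe set and array. Per the submitters' processing notes RMA and limma were used, with versions and settings not given in the sources used here. RMA includes normalization between arrays, so a change shared by most genes is not measured.

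The deposited intensity was taken as log2(value + 1). Probe sets with 1 symbol in the platform annotation, updated through the Entrez identifier to the RefSeq gene table, were kept where they reached the 40th percentile of their array on at least 3 of the 18 arrays, and the brightest stood for a gene. Of 45101 probe sets, 34945 had 1 symbol, 932 several and 9160 none, 64 were controls, and 26311 of those with 1 symbol passed. For 6823 of the 14432 tested genes the rule chose among several. Related genes can share probes.

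limma 3.58.1 in R 4.3.3 fitted 6 group means to all 18 arrays (12 residual degrees of freedom), with eBayes and Benjamini-Hochberg adjustment over all tested genes. The steps were tested on simulated data. The number of arrays limits the precision, and so does signal near background for dim genes. Named genes were the 15 most positive and the 15 most negative called interactions with arrays of the genotypes apart at 1 stage or more, the 8 largest that changed sign, up to 6 called members of each of 34 lists, members that did not pass, the HMGN family and Th. The members and lists were chosen with earlier results of these data known. Replicate numbers did not pair the arrays (correlations of deviations -0.199 to 0.116). Alternatives changed the normalization, offset, floor, filter, probe set rule, variance prior, array weights, arrays fitted and replicate block, and left out each array in turn.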

Additional observations from a re-analysis of the deposited data

Results flagged for a closer look

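The genotype effect differed between progenitors and neurons for 1599 genes, by the interaction term of the limma fit at an adjusted p under 0.05. For 135 of them it was called at both stages with opposite sign. The 8 largest of these under the naming rule had interactions of -2.44 for Rtp4, -2.19 for Ankrd1, -2.01 for Usp18, -1.85 for Cnn1, -1.78 for Ifit1, -1.73 for Krt7, -1.69 for Myl9 and 2.20 for Agtr2, on the log2 scale. For all 8 the 3 arrays of each genotype were apart at both stages. Outside the named genes, 4579 probe sets with no symbol or with several were tested, and 70 of them had a called interaction, 39 higher and 31 lower in neurons.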

How the results depend on the processing

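The interaction gave 818 genes higher and 781 lower. Other settings gave 671 to 1254 lower and 728 to 1116 higher, and those over 1.5 times the count came with array weights: 1254 genes lower, and 3989 with a genotype effect in progenitors. With every probe set tested and no filter, the change from progenitor to neuron was called for 22942 probe sets in +/+ and 23758 in -/-, of 34945 tested. With 1 array left out, 619 to 877 genes were higher and 559 to 856 lower, and 1157 to 1574 of the 1599 were called with the same sign. The genotype effect was then called for 1809 to 2582 genes in progenitors and 1300 to 2028 in neurons. Among the calls the share higher was 51.2% and ranged from 43.9% to 55.3%. With the replicate block, 728 genes were higher and 687 lower, 1415 in all, although the numbers did not pair the arrays. Of 195 called genes followed singly, 189 stayed called after quantile normalization and 186 with values floored at the 40th percentile. With the mean of a gene's probe sets 177 stayed, with no filter 180, and with every probe set and no filter 172. The lowest number with 1 array left out was 168, without progenitor +/+ replicate 1. The cardiac factor Tbx20 reversed with no filter, to 0.07 (adjusted p 0.824), when another probe set stood for it. The cause of the other changes was not tested. Another probe set had passed for 60 of 157 named genes, and 94 of 102 such probe sets had the sign of the first, some of them with values near 0. Signal limits the placental, pluripotency and serotonin genes, whose levels in some groups lay under the 40th percentile, and 3 arrays per group limit all of them.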
